A study of Mus musculus with 8 samples.

Results

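Tight junction genes were described in 2 sorted keratinocyte populations of newborn mouse skin. The 8 genes were Cldn1, Cldn4, Cldn7, Ocln, Tjp1, Tjp3, F11r and Cgn, taken by symbol from the 23433 symbols of the count files, and all 8 were among the 14176 genes that passed the filter on low counts. The populations were hair germ, the early epithelial bud of the hair follicle, and interfollicular epidermis (IFE), the epithelium between follicles. The study asked how the miR-200 microRNAs bear on cell adhesion and polarity during follicle formation. Transgenic pups (numbers 4 and 6) had both pTRE2-200bcl, which puts miR-200 sequences behind a doxycycline-responsive promoter, and K14rtTA, which makes the doxycycline-dependent activator from the keratin 14 promoter. Control pup 3 carried K14rtTA alone and control pup 5 carried pTRE2-200bcl alone, so the controls differed from each other in genotype. All pups were of mixed background, came from dams on doxycycline chow and were taken at postnatal day 0.5. Each pup gave 1 library per population, which made 4 groups with n = 2. All sorted cells were positive for K14RFP (a red reporter of keratin 14) and high for alpha6 integrin, with P-cadherin high for hair germ and low for IFE.

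Tight junctions seal the space between neighbouring epithelial cells. Claudins and occludin are 4-pass membrane proteins that form the sealing strands, JAM-A is a single-pass adhesion molecule beside them, and ZO proteins and cingulin form the cytoplasmic plaque that ties the strands to actin. In epidermis the functional junctions lie in the granular layer, well above the basal layer, and mice without claudin-1 die of water loss soon after birth. Transcripts of several of these genes are nevertheless present in basal cells, which are the cells that a high alpha6 integrin gate takes. ZEB and Snail transcription factors repress epithelial junction genes, and the miR-200 family is best known for repressing Zeb1 and Zeb2.

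The mature sequences of the miR-200 family are shown because the seed (bases 2 to 8, in capitals) is the part that mainly pairs with target sites. They are from RefSeq (GRCm38.p6), 5′ to 3′.
mmu-miR-200a-3p: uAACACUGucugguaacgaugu
mmu-miR-141-3p: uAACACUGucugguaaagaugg
mmu-miR-200b-3p: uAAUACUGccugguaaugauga
mmu-miR-200c-3p: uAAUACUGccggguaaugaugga
mmu-miR-429-3p: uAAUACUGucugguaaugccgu
The first pair share the seed AACACUG, matched by CAGTGTT in DNA, and the other 3 share AAUACUG, matched by CAGTATT. The annotated 3′ UTRs of the 8 genes (GENCODE M21, GRCm38, the coding strand only, 1 transcript per gene) held 1 match in each of 2 genes. They are shown with 11 bases on each side and the match in capitals.
Cldn1 site, chr16:26357253-26357281, minus strand: tggttgggagtCAGTGTTtcagcctatgg
Ocln site, chr13:100498635-100498663, minus strand: tttcctatctcCAGTATTgaagcatttta
The Cldn1 match began 1768 bases after the stop codon in a 3′ UTR of 2396 bases, and the Ocln match 162 bases after it in one of 2307 bases. Among 12698 tested genes with an annotated 3′ UTR, 30.34% held at least 1 of the 2 matches, so 2 of 8 is near that background. Zeb2 held 4 matches to CAGTGTT and 5 to CAGTATT in 4941 bases. A match is a description of letters and not a shown target site.

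Libraries held 7109871 to 14039583 counts assigned to genes. Ribosomal RNA precursor (Rn45s) held 3.564% to 13.01% of them in 6 libraries, 30.56% in IFE of control pup 3 and 29.03% in IFE of transgenic pup 4. The feature miR200primary was higher in transgenic pups in both populations, with mean CPM of 0.7856 against 661.6 in hair germ (edgeR adjusted p = 2.59e-06) and 3.231 against 660.5 in IFE (edgeR adjusted p = 5.09e-06). CPM are counts scaled to a common library total with TMM (trimmed mean of M values) library sizes. All adjusted p-values of group comparisons below are from edgeR's quasi-likelihood test with Benjamini-Hochberg adjustment over all tested genes, at a threshold of 0.05. An SE belongs to the fitted log2 fold change and is not the spread between pups, which is given as an SD with n = 2. In sorted bulk samples, fewer cells of a type and less RNA per cell cannot be told apart.

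Levels were first compared between genes per kilobase of exon (the union of annotated exons), as means over the 8 libraries. Cldn4, a claudin of many simple and stratified epithelia, had the highest mean of the 8 at 60.48 CPM per kb (SD 34.65). In control hair germ it was not the highest, at 30.82 CPM per kb against 33.16 for F11r and 32.22 for Cldn1. Cldn1, the claudin needed for the epidermal water barrier, had 38.84 (SD 14.78), and F11r, which encodes JAM-A, had 36.45 (SD 6.549). Tjp1, which encodes the plaque scaffold ZO-1, followed at 27.53 CPM per kb (SD 5.588), and Ocln (occludin) at 12.31 (SD 4.654). The ranges of these 5 genes over the libraries overlapped between each pair of neighbours in this order, from 14.95 to 120.4 for Cldn4 down to 6.68 to 21.27 for Ocln.

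The other 3 genes were low. Tjp3, which encodes ZO-3, had 2.963 CPM per kb (SD 1.478), and its highest library, at 5.654, lay under the lowest of Ocln. Cgn (cingulin) had 1.396 (SD 0.624) and Cldn7, a claudin found along the lateral membrane in many epithelia, 0.9797 (SD 0.7447). The ranges of these 3 genes overlapped. Among the 65 tight junction genes with a gene model, Cldn4 ranked 3, Cldn1 5, F11r 6, Tjp1 11, Ocln 18, Tjp3 33, Cgn 35 and Cldn7 37. Others with high levels were Csda (a Y-box protein found at tight junctions) at 130.3 CPM per kb, Cxadr (the coxsackie and adenovirus receptor) at 67.9, Amotl1 (an angiomotin family scaffold) at 47.89 and Prkci (an atypical protein kinase C of the polarity complex) at 31.24. Of the ZO genes, Tjp3 was lower in its highest library than Tjp1 in its lowest, at 19.89.

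**Figure D1:**
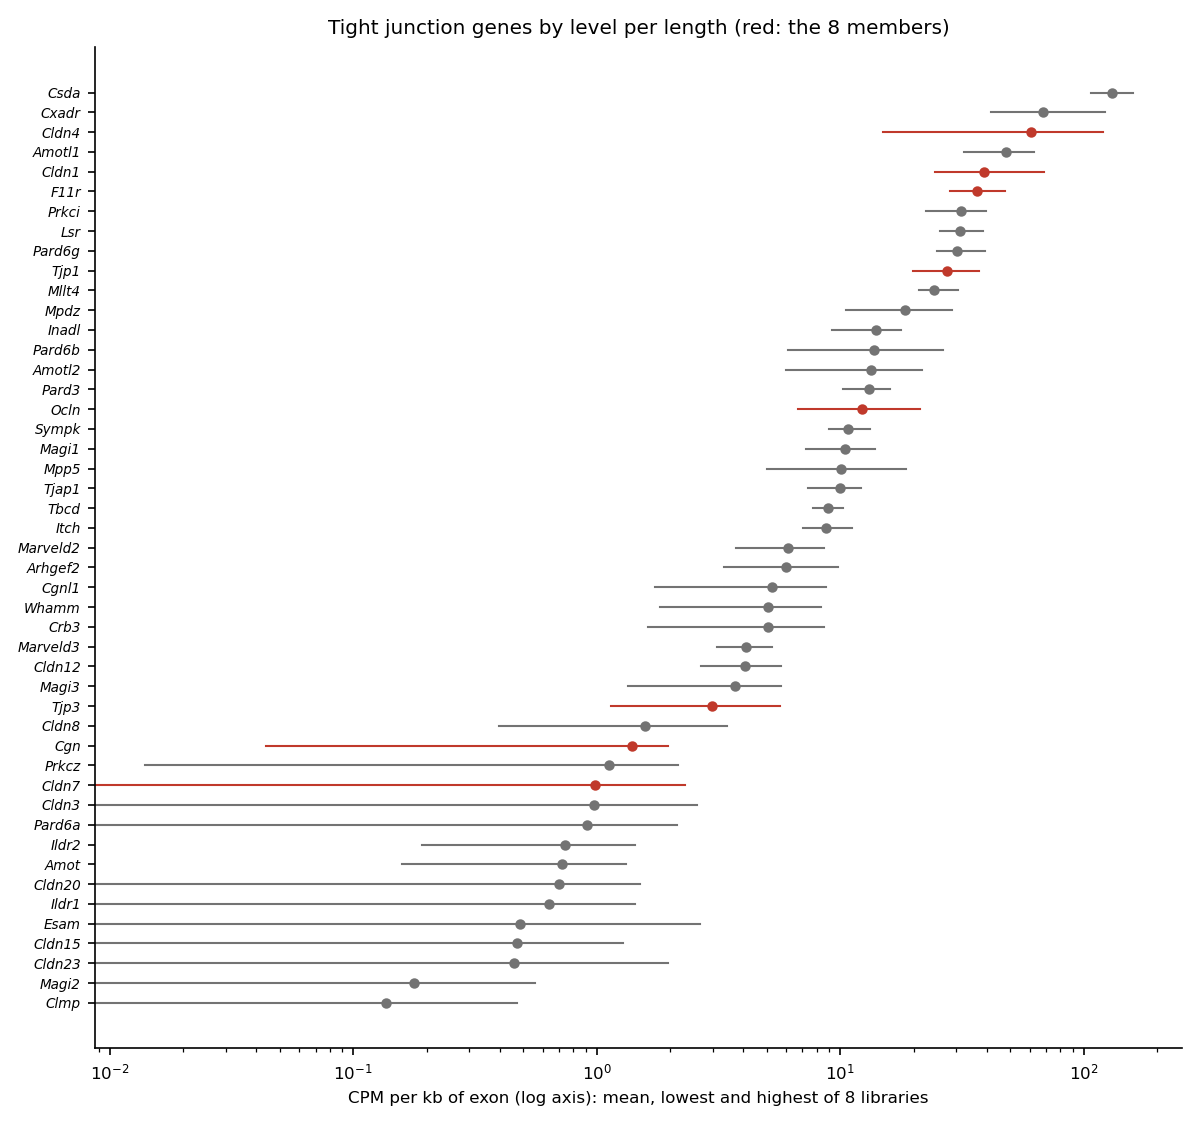
Mean level per length of tested tight junction genes with a gene model, in CPM per kb of exon on a log axis, with lines from the lowest to the highest of the 8 libraries; lines that run to the left edge include a library at 0. The 8 genes of interest are in red, with Cldn4, Cldn1 and F11r among the 6 highest and Cldn7 and Cgn near or below 1.396 CPM per kb.

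Between the populations, Cldn4, Cldn1 and Ocln were lower in hair germ than in IFE of the same pup in all 4 pups. So was F11r, by less. Over all tested genes 15.4% were lower in hair germ in all 4 pups, and here it was 4 of 8. The largest difference was that of Cldn4, with IFE to hair germ ratios of CPM of 3.419 in pup 3, 2.535 in pup 4, 2.579 in pup 5 and 1.813 in pup 6.

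Cldn4 (chromosome 5, 134945119 to 134946934, minus strand, GRCm38) had 27.15 CPM in hair germ and 92.82 in IFE of control pup 3, and 84.79 and 218.7 in control pup 5. In transgenic pup 4 it had 70.33 and 178.3 CPM, and in transgenic pup 6 it had 73.43 and 133.2. Hair germ libraries lay below IFE libraries within each genotype, although IFE control pup 3 was close to hair germ control pup 5. With the pup as a block, the log2 difference of hair germ against IFE over both genotypes was -1.33 (SE 0.149, 95% interval -1.66 to -0.993, adjusted p = 0.00177). Without the block it was -1.3 (SE 0.329, adjusted p = 0.0542), above the threshold.

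Cldn1 (chromosome 16, 26356642 to 26371841, minus strand) had 125.6 CPM in hair germ and 250.1 in IFE of control pup 3, and 186.3 and 331.4 in control pup 5. Its values in transgenic pup 4 were 139.7 and 180.5 CPM, and in transgenic pup 6 they were 118.3 and 172.2. The groups did not overlap within either genotype, and the highest hair germ library (control pup 5) lay above both transgenic IFE libraries. The log2 difference was -0.683 with the block (SE 0.116, 95% interval -0.943 to -0.422, adjusted p = 0.0104) and -0.674 without it (SE 0.169, adjusted p = 0.0515).

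Ocln (chromosome 13, 100496507 to 100552718, minus strand) had 28.2 CPM in hair germ and 53.11 in IFE of control pup 3, and 39.21 and 89.81 in control pup 5. It had 34.06 and 59.89 CPM in transgenic pup 4, and 47.62 and 63.78 in transgenic pup 6. All 4 hair germ libraries lay below all 4 IFE libraries. The log2 difference was -0.839 with the block (SE 0.17, 95% interval -1.22 to -0.458, adjusted p = 0.0217) and -0.848 without it (SE 0.223, adjusted p = 0.0616).

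**Figure D2:**
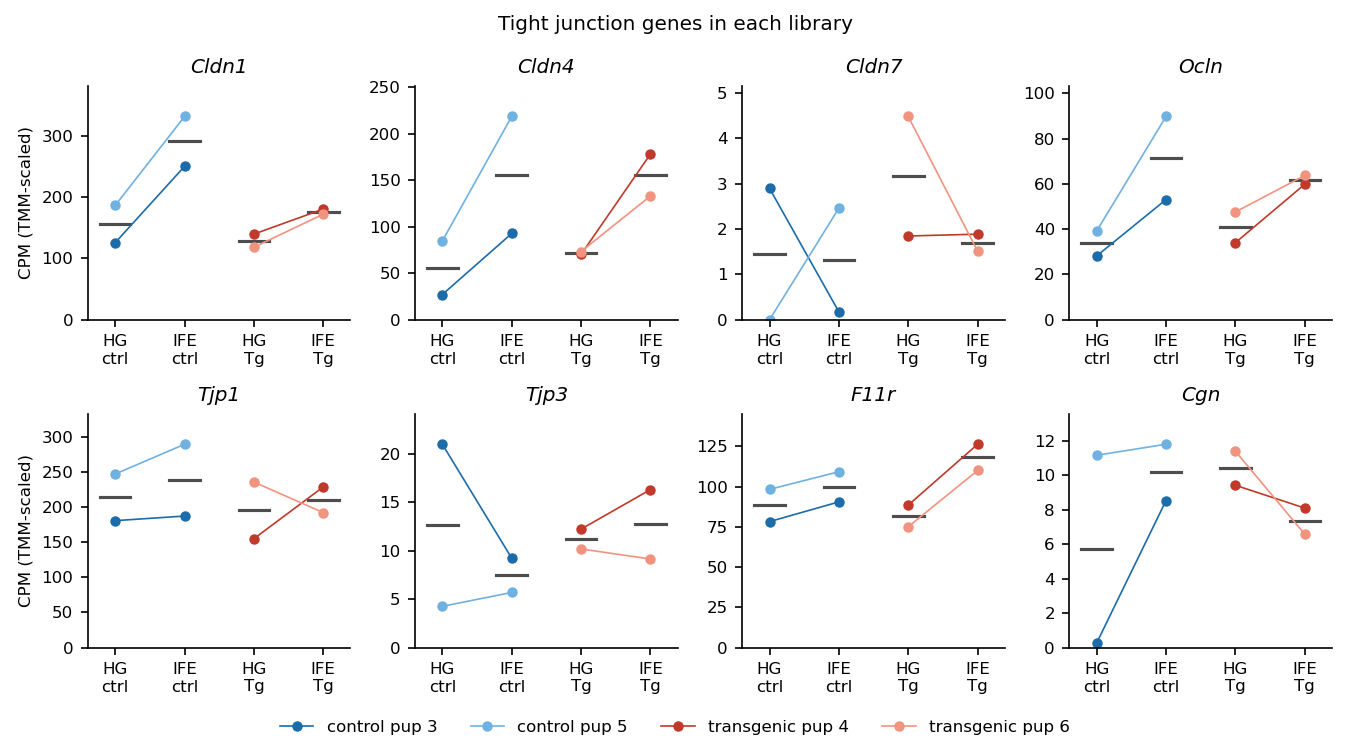
CPM of each of the 8 genes in every library (HG, hair germ; ctrl, control; Tg, transgenic), with a line joining the populations of 1 pup and a bar at the mean of each group of 2 pups; each panel has its own axis from 0. The lines of Cldn1, Cldn4, Ocln and F11r rise from hair germ to IFE in all 4 pups, and those of the other 4 genes run in both directions.

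Of the 8 genes, 3 were called lower in hair germ with the block, where 4.03% of all tested genes were. Without the block 0 of 8 passed, against 3.39% of all tested genes in either direction, while 4 had an unadjusted p under 0.05. The share of all tested genes with an unadjusted p under 0.05 was not counted. Such counts, here and below, thus have no background beside them. DESeq2 without the block called the same 3 genes, where it called 1014 of all tested genes. Limma-voom and edgeR's older quasi-likelihood method called 0 of the 8, against 221 and 355 of all tested genes. Blocked fits without 1 pup leave 1 pup in a genotype, and the number of all tested genes called moved with the pup left out. Whether Cldn1 and Ocln passed depended on that pup. Without pups 3, 4, 5 and 6, the log2 differences were -1.24, -1.22, -1.44 and -1.45 for Cldn4. They were -0.65, -0.745, -0.73 and -0.644 for Cldn1, and -0.912, -0.761, -0.77 and -0.943 for Ocln. With library size alone in place of TMM, the median log2 difference of all tested genes moved from -0.0389 to 0.206, and Cldn4, Cldn1 and Ocln stood at -1.06, -0.433 and -0.614.

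The summed level of 7 suprabasal keratinocyte genes, mostly Krt1 and Krt10, was 1020 to 1694 CPM in hair germ and 1710 to 4454 in IFE over all libraries, so the sum was lower in every hair germ library. Single markers were not all so. Lor was higher in hair germ than in IFE of pup 4 (12.85 against 4.046 CPM), and slightly so in pup 3 (1.406 against 1.393) and pup 5 (1.861 against 1.783). Krtdap was higher in hair germ in pup 4, Sbsn in pup 3 and Ivl in pup 5. Of these 7, 6 had a log2 difference below 0 (median -0.863), 0 passed without the block (3 had an unadjusted p under 0.05, 1 passed by DESeq2 and 0 by limma-voom) and 2 fell with it. Summed immune markers (9 genes) were 47.91 to 95.32 CPM in control hair germ, 167.2 to 286.1 in transgenic hair germ, 91.34 to 168.2 in control IFE and 1985 to 2559 in transgenic IFE. The part of either in the claudin and occludin differences was not tested. Endothelial markers summed to at most 17.94 CPM, and Emcn was at 0 in every library. The sort marker Cdh3 (P-cadherin) was higher in hair germ in all 4 pups, with a log2 difference of 0.486 (adjusted p = 0.126, and 0.0324 with the block).

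Within control pups alone, the log2 differences of hair germ against IFE were -1.48 for Cldn4, -0.899 for Cldn1 and -1.09 for Ocln (adjusted p = 0.492, 0.406 and 0.461). Of the 8 genes 0 passed, against 0.00705% of all tested genes, and 3 had an unadjusted p under 0.05. In transgenic pups they were -1.11, -0.45 and -0.604 (adjusted p = 0.219, 0.356 and 0.348), with 0 of 8 passing against 4.62% of all genes. There 2 of the 8, Cldn4 and F11r, had an unadjusted edgeR p under 0.05 (0.0339 and 0.04). Cldn1 and Ocln did not (0.0843 and 0.08). DESeq2 and limma-voom also called 0 of 8 in each genotype. Of all tested genes they called 149 and 0 in controls, and 906 and 558 in transgenics. The 0 of 8 by limma-voom in controls thus says nothing about these genes. With the block, Cldn4 alone fell in transgenic pups (-1.1, adjusted p = 0.013), where 5.28% of all genes were called lower, and 0 of the 8 passed in controls, against 0.0494% of all genes. Cldn1, Cldn4 and Ocln did not overlap between populations in either genotype. In transgenics F11r was also lower in hair germ without overlap, which made 4 of 8. Cgn was higher in hair germ without overlap there. The share of all genes that lay lower in hair germ without overlap was 19.2% in controls and 28.9% in transgenics.

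The promoters of the 3 genes called lower in hair germ with the block are shown because ZEB and Snail factors bind the letters CAGGTG. Each window runs from 250 bases before to 50 bases after the RefSeq start (GRCm38.p6), 5′ to 3′ on the gene's strand, with CAGGTG on either strand in capitals.
Cldn4 promoter, chr5:134946885-134947184, minus strand: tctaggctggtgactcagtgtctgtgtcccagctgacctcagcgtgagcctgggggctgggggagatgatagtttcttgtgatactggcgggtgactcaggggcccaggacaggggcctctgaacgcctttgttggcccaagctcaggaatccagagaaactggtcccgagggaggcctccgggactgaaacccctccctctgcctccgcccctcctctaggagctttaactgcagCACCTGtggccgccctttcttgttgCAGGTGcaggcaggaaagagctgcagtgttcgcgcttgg
Ocln promoter, chr13:100552669-100552968, minus strand: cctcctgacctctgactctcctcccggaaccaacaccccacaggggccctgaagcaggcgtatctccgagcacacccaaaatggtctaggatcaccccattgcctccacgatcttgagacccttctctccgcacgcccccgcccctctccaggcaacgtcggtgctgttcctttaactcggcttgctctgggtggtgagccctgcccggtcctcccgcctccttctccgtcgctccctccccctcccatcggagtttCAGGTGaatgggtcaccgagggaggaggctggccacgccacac
Cldn1 promoter, chr16:26371790-26372089, minus strand: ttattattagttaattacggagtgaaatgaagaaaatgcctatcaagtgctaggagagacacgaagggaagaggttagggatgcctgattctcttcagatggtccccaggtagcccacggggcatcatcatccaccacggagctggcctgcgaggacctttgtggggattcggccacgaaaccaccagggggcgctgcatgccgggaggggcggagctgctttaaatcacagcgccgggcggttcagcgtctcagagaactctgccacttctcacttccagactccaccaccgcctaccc
With the start base counted as 0, the matches of Cldn4 began at -14 and 11 and that of Ocln at 7, while the Cldn1 window held none. A second annotated start of Ocln gave 2 matches, at -213 and -68, of which the first is the same site as that at 7, since the windows overlap. In all, 7 of the 11 RefSeq windows of the 8 genes held CAGGTG (5 of 8 genes, the others being Cldn7, Tjp3 and F11r), against 20.21% of 32851 windows of the same length. AACNGGTT, letters bound by grainyhead-like factors, was found in 1 window, that of Cgn at -29, against 2.088% of all windows. These matches were not tested for binding.

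F11r (chromosome 1, 171437535 to 171464603, plus strand) varied least over the libraries, with a highest to lowest ratio of CPM of 1.682. In control pups 3 and 5 it had 78.28 and 98.35 CPM in hair germ and 90.55 and 109.3 in IFE. In transgenic pups 4 and 6 it had 88.55 and 75.13 CPM in hair germ and 126.4 and 110.1 in IFE. Each pup had less in hair germ, and the groups overlapped in controls but not in transgenics. The log2 difference over both genotypes was -0.354 (SE 0.162, adjusted p = 0.264), and -0.356 with the block (adjusted p = 0.153).

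Tjp1 (chromosome 7, 65296165 to 65527781, minus strand) had 181.1 and 247.7 CPM in hair germ and 187.7 and 290.2 in IFE of control pups 3 and 5. It had 155.4 and 236.2 CPM in hair germ and 229.3 and 192.6 in IFE of transgenic pups 4 and 6. The groups overlapped, and pup 6 alone had more in hair germ. The log2 difference of hair germ against IFE was -0.134 (95% interval -0.556 to 0.289, adjusted p = 0.767), which leaves room for a change of either sign.

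Cgn (chromosome 3, 94760069 to 94786492, minus strand) had 1 library far below the rest. Hair germ control pup 3 had 3 counts, or 0.2636 CPM (95% exact Poisson interval 0.05435 to 0.7703, counting error only), against 11.16 CPM from 168 counts in hair germ control pup 5. The IFE controls had 8.533 and 11.8 CPM, the hair germ transgenics 9.418 and 11.39, and the IFE transgenics 8.093 and 6.575. The other 7 libraries thus lay between 6.575 and 11.8 CPM. The log2 difference of hair germ against IFE was -0.136 (adjusted p = 0.938) with all libraries. It was 0.311 (adjusted p = 0.705) without hair germ control pup 3, and -2.36 (adjusted p = 0.0327) without hair germ control pup 5, which leaves the library of 3 counts as the only hair germ control.

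Tjp3 (chromosome 10, 81273207 to 81291581, minus strand) differed between the same 2 libraries in the opposite direction, with 21 CPM in hair germ control pup 3 and 4.253 in hair germ control pup 5. It had 9.229 and 5.688 CPM in the IFE controls, 12.23 and 10.18 in the hair germ transgenics and 16.32 and 9.144 in the IFE transgenics. The 2 hair germ controls were the highest and lowest of the 8 libraries. Tjp3 shares 40 exonic bases with Apba3 on the opposite strand, and with no strand setting given in the sources used here, reads there cannot be told apart.

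Cldn7 (chromosome 11, 69964779 to 69967885, plus strand) was close to the limit of detection, with 0 to 37 counts per library. It had 2.899 CPM and 0 in hair germ controls, 0.1741 and 2.462 in IFE controls, 1.848 and 4.484 in hair germ transgenics and 1.888 and 1.511 in IFE transgenics. The count of 0 in hair germ control pup 5 allows up to 0.1993 CPM, and the single count in IFE control pup 3 has a 95% exact Poisson interval of 0.004409 to 0.9702 CPM. The 2 control pups lay further apart than these counting limits in both populations, in opposite order. The order of the groups could not be resolved. Neither Tjp3 (0.321, adjusted p = 0.782) nor Cldn7 (0.267, adjusted p = 0.916) passed the test of hair germ against IFE.

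In hair germ, transgenic and control pups overlapped in CPM for all 8 genes, and 0 of 8 passed the test, against 0.952% of all tested genes. None had an unadjusted p under 0.05. DESeq2 and limma-voom called 0 of the 8, where they called 663 and 17 of all tested genes. Over all tested genes 39.3% had groups without overlap. Cldn1 was at 129 ± 15.14 CPM in transgenic and 156 ± 42.91 in control hair germ (log2 fold change -0.274, 95% interval -0.794 to 0.245, adjusted p = 0.593). Cldn4 was at 71.88 ± 2.197 and 55.97 ± 40.76 (0.354, interval -0.657 to 1.36, adjusted p = 0.746), and Ocln at 40.84 ± 9.588 and 33.7 ± 7.78 (0.269, interval -0.422 to 0.96, adjusted p = 0.713). For these strand proteins the intervals hold both a fall and a rise.

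The intervals of the plaque genes and of F11r also held both signs. Tjp1 was at 195.8 ± 57.15 CPM in transgenic and 214.4 ± 47.08 in control hair germ (log2 fold change -0.133, adjusted p = 0.854), and F11r at 81.84 ± 9.487 and 88.31 ± 14.19 (-0.11, interval -0.608 to 0.389, adjusted p = 0.856). Tjp3 had a log2 fold change of -0.132 (adjusted p = 0.949), Cgn 0.781 (adjusted p = 0.677) and Cldn7 1.22 (adjusted p = 0.644). Their intervals were wider, at -1.59 to 1.33, -1.04 to 2.6 and -1.37 to 3.81. For Tjp3 and Cgn the control pups lay further apart than the transgenic pups, with SDs of 11.84 and 7.707 CPM against 1.454 and 1.395 in transgenics. Without hair germ control pup 5, Cgn had a log2 fold change of 5.23 (adjusted p = 0.0301), and without hair germ control pup 3 it had -0.155.

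In IFE, 0 of 8 passed in the comparison of transgenic with control pups, against 6.34% of all tested genes. DESeq2 and limma-voom also called 0 of the 8, where they called 1095 and 661 of all tested genes. Cldn1 alone had an unadjusted p under 0.05. It was at 250.1 and 331.4 CPM in the control pups and 180.5 and 172.2 in the transgenic pups, with no overlap. Its log2 fold change was -0.723 (SE 0.238, 95% interval -1.24 to -0.203, adjusted p = 0.111). Over the alternatives tried it ranged from -0.498 to -0.924, with adjusted p from 0.0603 to 0.792, and passed in none.

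Among the others, F11r lay higher in both transgenic IFE libraries than in both controls, at 118.2 ± 11.51 against 99.9 ± 13.22 CPM (log2 fold change 0.239, adjusted p = 0.72). Cgn lay lower, at 7.334 ± 1.073 against 10.17 ± 2.31 CPM (-0.52, adjusted p = 0.875). Non-overlap was common in this comparison, at 52.9% of all tested genes, and 3 of 8 is not above it. Cldn4 had the same mean of 155.7 CPM in both genotypes, with an SD of 89 in controls and 31.93 in transgenics (log2 fold change -0.0105, 95% interval -1 to 0.983, adjusted p = 0.999). Ocln was at 61.84 ± 2.755 against 71.46 ± 25.95 CPM (-0.219, adjusted p = 0.848) and Tjp1 at 210.9 ± 25.98 against 239 ± 72.49 (-0.184, adjusted p = 0.857). Tjp3 (0.793, adjusted p = 0.706) and Cldn7 (0.0205, adjusted p = 0.999) had intervals of -0.799 to 2.39 and -2.97 to 3.01.

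Cell type markers also differed between the IFE groups. All 8 tested immune markers were called higher in transgenic IFE, where 6.34% of all tested genes were called in either direction. All 6 basal keratinocyte markers had a log2 fold change below 0. Of these, 4 were called lower by the main test and 6 by DESeq2 and by limma-voom. The summed basal level was 15580 to 15840 CPM in transgenic and 31330 to 33220 in control IFE. Of 7 melanocyte markers 4 were called higher, and of 6 Merkel cell markers 1 was (Krt18). Krt14 fell by 1.08 on the log2 scale (adjusted p = 0.0484), against the -0.723 of Cldn1. The part of these changes in the Cldn1 values was not tested. In hair germ, 3 of 8 tested immune and 3 of 7 melanocyte markers were called higher in transgenic pups. There 0.952% of all tested genes were called in either direction. Limma-voom called 0 of the immune and 1 of the melanocyte markers. Of 6 basal markers 0 were called and 5 had a log2 fold change below 0. The basal sum was 16310 to 19820 CPM in transgenic and 24080 to 28100 in control hair germ. Their part in the hair germ values was not tested.

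**Figure D3:**
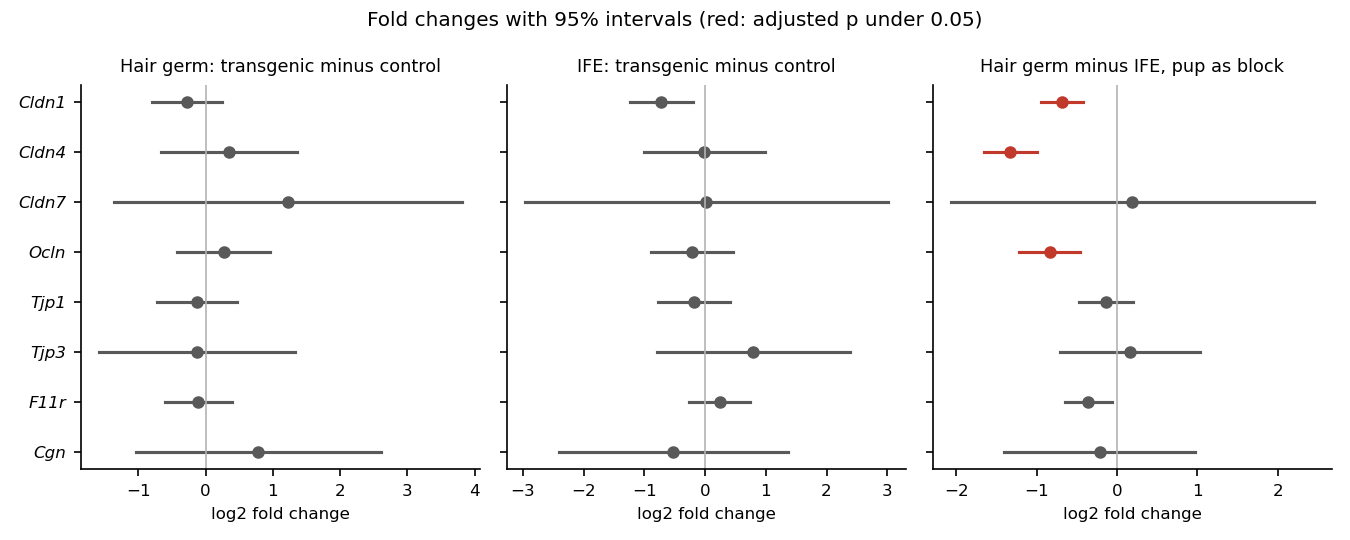
Log2 fold changes of the 8 genes (points) with 95% intervals (lines) for transgenic minus control in hair germ and in IFE, and for hair germ minus IFE with the pup as a block; red marks an adjusted p under 0.05. Only Cldn1, Cldn4 and Ocln are red, in the panel of populations, and the widest intervals are those of Cldn7, Tjp3 and Cgn.

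The transgenic effect was not shown to differ between populations for any of the 8 genes. In the test of the difference of effects (hair germ minus IFE) 0 of 8 passed, against 0.134% of all tested genes, with 0 at an unadjusted p under 0.05. DESeq2 and limma-voom also called 0 of the 8, where they called 177 and 1 of all tested genes. The difference was 0.449 for Cldn1 (95% interval -0.284 to 1.18, adjusted p = 0.839), 0.364 for Cldn4 (adjusted p = 0.974), 0.488 for Ocln (adjusted p = 0.889) and 1.3 for Cgn (adjusted p = 0.891). Without hair germ control pup 5 that of Cgn became 5.73 (adjusted p = 0.0415), again with the library of 3 counts as the only hair germ control.

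The wider set of tight junction genes held 69 symbols with the 8 above, of which 67 were found and 49 tested. Of 23 other claudins 7 were tested, and Cldn5, Cldn11, Cldn13 and Cldn17 had 0 counts in all 8 libraries. None of the 7 passed in any of the 6 comparisons by edgeR, DESeq2 or limma-voom, and 1 had an unadjusted p under 0.05, in transgenic against control IFE. The same held for the 9 tested genes of other membrane proteins, with at most 1 unadjusted p under 0.05 per comparison.

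Of 25 plaque and signalling genes, 1 passed in hair germ against IFE over both genotypes, near the 3.39% of all tested genes, and its direction was opposite to that of Cldn1, Cldn4 and Ocln. Cgnl1, which encodes paracingulin, a plaque protein related to cingulin, had 58.69 and 68.31 CPM in hair germ and 13.58 and 19.44 in IFE of control pups 3 and 5. In transgenic pups 4 and 6 it had 66.28 and 68.22 CPM in hair germ and 16.32 and 17 in IFE. Every hair germ library lay above every IFE library, and the log2 difference was close to the same in the 4 pups (2.096, 2.009, 1.803 and 1.992 in pups 3, 4, 5 and 6). It was 1.96 in the fit (SE 0.206, adjusted p = 0.00119). With the block, Mpdz (0.497, adjusted p = 0.0325) and Inadl (0.491, adjusted p = 0.0434), both PDZ scaffolds of the tight junction, were also higher in hair germ. There 5.83% of all tested genes were called in either direction and 4.03% were called lower. Without the block neither Mpdz nor Inadl passed (adjusted p = 0.35 and 0.0867). The Mpdz difference was 0.233 and 0.051 in control pups 3 and 5 and 0.92 and 0.788 in transgenic pups 4 and 6. In transgenic against control IFE 1 of the 25 passed, against 6.34% of all tested genes. It was Amotl2, an angiomotin family scaffold, lower at 42.61 ± 6.854 against 100.3 ± 18.99 CPM (-1.23, SE 0.275, adjusted p = 0.0195). DESeq2 called 3 of the 25 and limma-voom 1, where they called 1095 and 661 of all tested genes. An unadjusted p under 0.05 was found for 9 of the 25. The list's median log2 fold change there was -0.405, against -0.00761 over all tested genes, with 17 of 25 below 0. In hair germ 0 of 25 passed by edgeR, DESeq2 or limma-voom, with 4 at an unadjusted p under 0.05.

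Of 14 tested regulators of epithelial junction genes, 3 changed in transgenic against control IFE, where 6.34% of all tested genes were called. Zeb2, a repressor of epithelial junction genes, rose from 14.11 and 3.141 CPM in control pups 3 and 5 to 294.7 and 168.9 in transgenic pups 4 and 6 (log2 fold change 4.9, SE 0.545, adjusted p = 0.000299). In hair germ it had 11.6 and 6.977 CPM in controls and 25 and 25.69 in transgenics. Zeb1 averaged 12.75 CPM in transgenic and 1.966 in control IFE (adjusted p = 0.0944), and 2.455 and 0.4984 in hair germ (adjusted p = 0.383). Transgenic IFE was also the group with the highest summed immune markers, and the part of immune cells in it was not tested.

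The other 2 that changed in IFE are Grhl2, a grainyhead-like activator of claudin genes, and Snai2, a Snail-family repressor. Grhl2 fell from 223.6 ± 28.38 to 118.1 ± 8.242 CPM (-0.92, SE 0.199, adjusted p = 0.0171) and Snai2 from 232.3 ± 69.75 to 110.1 ± 13.94 (-1.08, SE 0.237, adjusted p = 0.0186). The 6 basal keratinocyte markers had a median log2 fold change of -0.905 in the same comparison and the 8 tested immune markers 4.02, and their part in these falls was not tested. In hair germ 0 of 14 passed (4 with an unadjusted p under 0.05, 1 by DESeq2 and 0 by limma-voom). Between the populations over both genotypes Zeb2 was lower in hair germ (-1.47, adjusted p = 0.0488). That mean joins unlike genotypes, with 0.248 in controls (adjusted p = 0.923) and -3.19 in transgenics (adjusted p = 0.00314), and pup 5 had more in hair germ. The difference of the transgenic effect on Zeb2 was -3.44 (adjusted p = 0.0974), and -3.482 with the block (adjusted p = 0.0196). With the block, Ovol1, an epithelial transcription factor that represses Zeb1, was also lower in hair germ (-0.856, adjusted p = 0.00552). There 4.03% of all tested genes were called lower. Without the block Ovol1 did not pass (-0.857, adjusted p = 0.148). It was lower by 0.789, 0.863, 0.773 and 0.993 on the log2 scale in pups 3, 4, 5 and 6.

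The 8 genes differed in how much they varied over the 8 libraries. The SD of log2 CPM was 0.2572 for F11r, 0.2914 for Tjp1, 0.503 for Cldn1, 0.5353 for Ocln, 0.7341 for Tjp3, 0.9327 for Cldn4, 1.581 for Cgn and 1.601 for Cldn7. For the 3 most variable genes whose mean log2 CPM reached 2, the genes of most similar pattern were taken by the root mean square (RMS) difference of gene-centred log2 CPM over the 8 libraries, among 7177 or 7178 genes. Cldn4 was most like Zc3h12c (RMS difference 0.2482), Pmaip1 (0.2606) and Ptgs2 (0.2713), where the median gene stood at 0.9229. These are a CCCH zinc-finger gene, a pro-apoptotic BCL2 family gene and a prostaglandin synthase gene. Ocln ranked 47 in likeness to Cldn4 (0.4577) and Cldn1 430 (0.6352).

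The patterns of Cgn and Tjp3 followed the 2 hair germ controls. Cgn was most like Zfp935 (RMS difference 0.5137), Unc13b (0.5342) and Nol7 (0.5959), against a median of 1.521. All 3 were lowest in hair germ control pup 3, at 2.372, 2.109 and 3.163 CPM, and at 24.19, 29.7 and 25.78 in hair germ control pup 5. Tjp3 was most like Scamp4 (0.2798), Usf1 (0.293) and Sppl2b (0.3035), against a median of 0.7952. Those had 23.81, 70.02 and 32.33 CPM in hair germ control pup 3 and 9.236, 22.93 and 9.768 in pup 5. The points share libraries and depth, so likeness here is a description over 8 libraries.

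**Figure D4:**
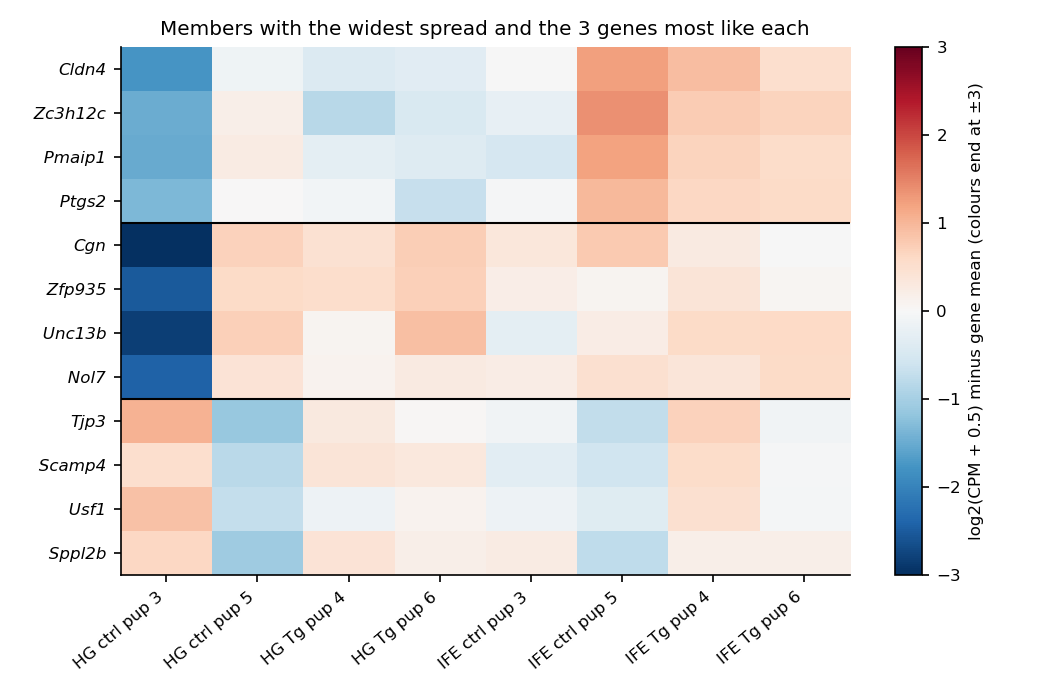
Gene-centred log2(CPM + 0.5) of Cldn4, Cgn and Tjp3 and of the 3 genes most like each, in each library (HG, hair germ; ctrl, control; Tg, transgenic); blue is below and red above the gene's mean. Cldn4 and its likest genes are lowest in hair germ control pup 3 and highest in IFE control pup 5, the Cgn block is low in hair germ control pup 3 alone, and Tjp3 is high there and low in hair germ control pup 5.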

How the data were processed

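Total RNA from sorted cells was made into libraries with a SMARTer stranded kit for low input, per the labels' protocols. The authors deposited raw counts per gene symbol, and TopHat, HTSeq, DESeq2 and mm10 (GRCm38) are named in the submitters' processing notes. No version, annotation or strand setting is given there, and a deposited matrix of normalised values was not used. Summary lines of HTSeq were left out; 23.4% to 42.4% of reads per library were assigned to genes.

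Counts were tested with edgeR 4.0.16 in R 4.3.3: TMM, filterByExpr (14176 genes), 4 group means over 8 libraries, and glmQLFit (legacy set to FALSE) with glmQLFTest, two-sided, Benjamini-Hochberg threshold 0.05. Residual degrees of freedom were 4, and the common coefficient of biological variation 0.4746. Each SE divides the absolute log2 fold change by the square root of F. Alternatives were other scalings, no filter, DESeq2 1.42.0, limma-voom (limma 3.58.1), libraries left out, and the pup as a block. Each pup number is 1 animal that gave both populations, per the labels, so hair germ and IFE are paired. The deviations of its 2 libraries from their group means correlated across genes at 0.117 (controls) and 0.0868 (transgenics), and at 0.394 and 0.191 over 7365 genes with mean log2 CPM of at least 4.

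All 8 genes were named in every main comparison. Other genes were named by rule: up to 3 per list with the smallest p among those past the threshold, the 5 highest per length, the 3 most like each of 3 variable genes, and checks of the sort and transgene. Cgnl1 by pup, Mpdz, Inadl and Ovol1 were added after their values were seen. A further gene is not reported here. The members and lists were chosen with earlier results of these data known. Sequences are from RefSeq and GENCODE M21. The tests were checked on simulated data.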

Additional observations from a re-analysis of the deposited data

How the results depend on the processing

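The main counts were 0 of 8 in every comparison. Of 114 counts of genes past the threshold under an alternative, 99 stayed at 0. Such a 0 says little where a fit called few of all tested genes, as limma-voom did between populations of controls (0 genes). Of 650 single log2 fold changes 578 kept direction and side of the threshold. The cause of each change below was not tested. For hair germ against IFE over both genotypes, the main fit called 481 of all tested genes. The count of the 8 was 3 with the replicate block (pup) and 3 with DESeq2, where 826 and 1014 of all genes were called. It was 1 with library size alone and 1 with no low-count filter, where 536 and 519 were called. It also moved with single libraries left out and in blocked fits without 1 pup (chosen after seeing the data), which leave 1 pup in a group. The number of all genes called moved in those fits as well. Within transgenics the count of the 8 was 1 with the replicate block and 1 with only the 4 libraries compared. There 1018 and 1385 of all genes were called, against 655 in the main fit. It did not move with a library left out. Leaving out 1 library gave 0 to 1 in transgenic against control hair germ, 0 to 0 in IFE, 0 to 2 between populations of controls and 0 to 1 for the difference of effects. Where a count rose above 0 on leaving out 1 library, the highest count came without hair germ control pup 5. The block changed no other call of the 8 genes. Signs turned as follows (log2). In transgenic against control hair germ, Tjp3 was 0.41 with limma-voom and Tjp1 0.118 without pup 4. In IFE, Cldn4 was 0.0267 with DESeq2 size factors, 0.0613 with library size alone, 0.0481 unfiltered, 0.0353 with DESeq2, 0.0119 with limma-voom and 0.0289 with 4 libraries. Cldn7 there was -0.0581 without pup 4, -0.679 with the 2 Rn45s-rich libraries removed and -0.0107 without Rn45s. Between populations, Tjp1 was 0.12 and Cgn 0.0996 with library size alone, Tjp1 0.0501 without pup 4, and Cldn7 -0.611 with limma-voom and -0.000801 with the Rn45s-rich libraries removed. With single libraries left out, hair germ ranges were Cldn4 -0.287 to 1.4, Tjp3 -0.904 to 1.35, Cgn -0.155 to 5.23, Cldn1 -0.578 to 0.0347, Tjp1 -0.491 to 0.108, F11r -0.312 to 0.0612 and Ocln -0.0133 to 0.527. IFE ranges were Cldn4 -0.431 to 0.749, Cldn7 -0.506 to 3.17, Ocln -0.474 to 0.228 and Tjp1 -0.399 to 0.173. Population ranges were Cldn7 -3.11 to 1.82, Tjp3 -0.459 to 0.686, Cgn -2.36 to 0.311 and Tjp1 -0.304 to 0.036, and in blocked fits without 1 pup -3.43 to 2.44, -0.289 to 0.513, -2.22 to 0.212 and -0.356 to 0.0578 (Cldn7 -0.308 without pup 6), while the difference of effects of Cldn4 ran from -0.401 to 1.4. Cldn7, Cgn and Tjp3 had the fewest counts of the 8 genes, and their 2 hair germ control pups lay far apart. With a library left out of a group, the lone pup is assumed to vary like the other groups.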
